A study of Mus musculus with 2 samples.

Results

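The cytosolic ribosome is the particle that translates nuclear mRNAs, and its proteins are built into a large subunit, which joins amino acids, and a small subunit, which reads the mRNA. Mammalian ribosomal protein mRNAs start with a C followed by a run of pyrimidines, the terminal oligopyrimidine (TOP) tract, through which the kinase complex mTORC1 and the RNA-binding protein LARP1 adjust their translation. In kidney, as in other tissues, they are among the abundant mRNAs.

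Genes for cytosolic ribosomal proteins were taken by name from a table of RNA-seq read counts of whole mouse kidneys. They were the protein-coding rows whose symbol starts with Rpl or Rps and a digit, with Rplp0, Rplp1, Rplp2 and Rpsa, and without the Rps6k kinases. The rule found 90 of 45777 genes, of which 77 encode canonical ribosomal proteins (43 of the large subunit, 3 of its stalk and 31 of the small subunit). The other 13 are paralogs, retrocopies, pseudogene-like symbols and Rps19bp1, whose name refers to a protein that binds RPS19. The study had 1 library from mice with a conditional knockout (CKO) of Inmt in the proximal tubule and 1 library from control mice, and it asks what Inmt deletion in that segment changes in the kidney. Both groups ate standard chow and received no treatment. The labels used here do not give the strain, age, sex, Cre driver or number of animals behind either library.

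The CKO library held 38136616 counted reads and the Control library 33618076. Levels are given as CPM, reads scaled to a common library total by the trimmed mean of M values (TMM), and differences as the ratio or log2 ratio of CKO to Control. A gene with at least 1 CPM in either library was called expressed, which 15129 genes were. Since each group has a single library, no difference could be checked in replicates and no p-value is given. The exact 95% intervals cover counting error only, so they compare these 2 libraries and not the genotypes. Inmt had 124 CPM in the CKO library and 587 CPM in the Control library, a ratio of 0.211 (interval 0.205 to 0.218). All 8 kidney markers examined, among them Lrp2 and Umod, were expressed. All 14 macrophage markers were higher in the CKO library, with a summed level of 402 CPM there and 83.0 CPM in the Control library, where Ms4a7 was at 0. All 7 expressed T and NK cell markers of 9 were higher too (13.8 against 4.42 CPM summed), as were all 7 markers of dividing cells (63.6 against 14.0 CPM), of which Bub1 was at 0 in the Control library. Of 6 B and plasma cell markers only Ighm was expressed (12.3 CPM in the CKO and 3.42 CPM in the Control library), and Ms4a1 was at 0 in the CKO library. Of 16 genes listed as proximal tubule markers, 15 were lower in the CKO library, and 12 were lower with total counts. The 16 summed to 25253 CPM in the CKO library and 51821 CPM in the Control library. This list includes Keap1, which is not specific to that segment, so its counts and sums cover more than markers. The median log2 ratio of all expressed genes was 0.01 with TMM and 0.32 when total counts set the scale, and list directions below are read relative to the median of all expressed genes. The part of these shifts in the ribosomal protein values was not tested, and in whole kidney a change in cell number cannot be told apart from a change in RNA per cell.

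The 8 members shown next were taken from those in which a tract was found, with ratios from 1.30 for Rps27 to 0.953 for Rpl7a. For each, 30 bases around the annotated start are printed. They come from RefSeq (build GRCm38.p6), are written 5′ to 3′ in the direction of the gene and run from 12 bases before the start. Capitals mark the pyrimidine tract, a C followed by at least 5 C or T, from the first such C within 10 bases of the start. A run that reaches further upstream was still counted, and its upstream bases stay in lower case, as for Rpl7a.
Rps27, chr3:90213631-90213660, minus strand: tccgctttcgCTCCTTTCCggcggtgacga
Rps9, chr7:3704029-3704058, plus strand: gccttgtCTCTCTTTgtctcgggcctgagt
Rpl14, chr9:120571505-120571534, plus strand: cgggCCCTCTCTCTTCTCgctgagcgccgc
Rpl27a, chr7:109519183-109519212, plus strand: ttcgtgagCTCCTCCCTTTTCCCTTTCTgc
Rpl35, chr2:39005114-39005143, minus strand: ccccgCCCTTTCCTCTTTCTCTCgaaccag
Rps6, chr4:86857350-86857379, minus strand: cggaagtcgggCCTCTTTTTCgtgacgcct
Rpl28, chr7:4792953-4792982, plus strand: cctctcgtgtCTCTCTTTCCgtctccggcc
Rpl7a, chr2:26910795-26910824, plus strand: ccCTCTTCTTTCTTTCTCCagcagccgagc

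Promoter sequences were at hand for 57 of the 77 canonical genes. The tract, searched on the sense strand, was present in 31 of these 57 (54.4%). It was present in 23.6% of 11465 other expressed genes and in 23.2% of 69 mitochondrial ribosomal protein genes. A gene with several annotated starts was counted if any of them had the tract. The annotated start can be off by some bases, so a gene without a match here may still carry a tract. Members with the tract had a median log2 ratio of 0.15, and the 26 without it also had 0.15.

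The ETS-type motif CCGGAAGT, which members of the ETS transcription factor family can bind, was searched on both strands from 250 bases before to 50 bases after the start. It was found in 11 of the 57 canonical genes (19.3%), in 8.22% of other expressed genes and in 17.4% of the mitochondrial ribosomal protein genes. Windows of 30 bases are printed for 3 of them, with the motif or its reverse complement in capitals.
Rpl11, chr4:136053369-136053398, minus strand: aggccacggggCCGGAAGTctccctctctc
Rpl41, chr10:128549206-128549235, minus strand: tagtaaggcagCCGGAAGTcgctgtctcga
Rpsa, chr9:120127566-120127595, plus strand: tcgccccagctACTTCCGGcctggggtctg
The 11 genes with the motif had a median log2 ratio of 0.08 and the 46 without it had 0.16. The motif AAGATGGC, a match to the binding sequence of the zinc finger factor YY1, was in 5 of 57 canonical genes (8.77%), in 4.81% of other expressed genes and in 17.4% of mitochondrial ribosomal protein genes. The TATA motif TATAAA was in 10.5% of the canonical genes and in 9.29% of other expressed genes. Both were searched on both strands.

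As a class, ribosomal protein mRNAs were slightly higher in the CKO library. The 90 genes took 1.39% of all counted reads in the CKO library (exact binomial interval 1.386 to 1.393) and 1.03% in the Control library (1.024 to 1.031). Mitochondrially encoded genes took 10.8% of CKO and 14.4% of Control reads. Among the remaining reads the members' share was 1.56% in the CKO and 1.20% in the Control library. After TMM scaling the members summed to 12444 CPM in the CKO library and 11469 CPM in the Control library, a ratio of 1.085 (1.080 to 1.090). With total counts as the scale the ratio was 1.35, so the size of the class difference rests on the scaling.

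Of the 90 members, 84 were expressed, including all 77 canonical ones. The canonical members had a median log2 ratio of 0.12, against 0.01 over all expressed genes, and 69 of 77 had a log2 ratio above 0. With means in place of medians the order turned, at 0.13 for the canonical members and 0.15 for all expressed genes. Over all expressed genes 50.7% had a log2 ratio above 0. Among 8521 other genes with a mean level within the canonical members' range of 13.9 to 474 CPM, 37% did, and their median was -0.10. Only the ends of this range are matched, the lower one being the level of Rpl29. In the CKO library the 8521 genes summed to 555781 CPM and the 77 canonical members to 12262 CPM, so these other genes are lower on average. The counting interval lay above 1 for 53 canonical members and below 1 for 4, where it lay above 1 for 36.8% and below 1 for 34.7% of all expressed genes. Among other genes of the same CPM range the shares were 27.4% above 1 and 49.6% below 1. The canonical median was above that of all expressed genes under each of the 7 scalings plotted with the medians by scaling. Apart from FPKM and TPM, these scalings divide each library by a constant. This moves both medians almost alike, so those settings could not change the order and are no separate check of it. With FPKM too, the ratio was within 1% of 0.880 times the ratio of reads for 71 of the 77. For most members FPKM and TPM thus also act nearly as a constant and are no full check.

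**Figure D1:**
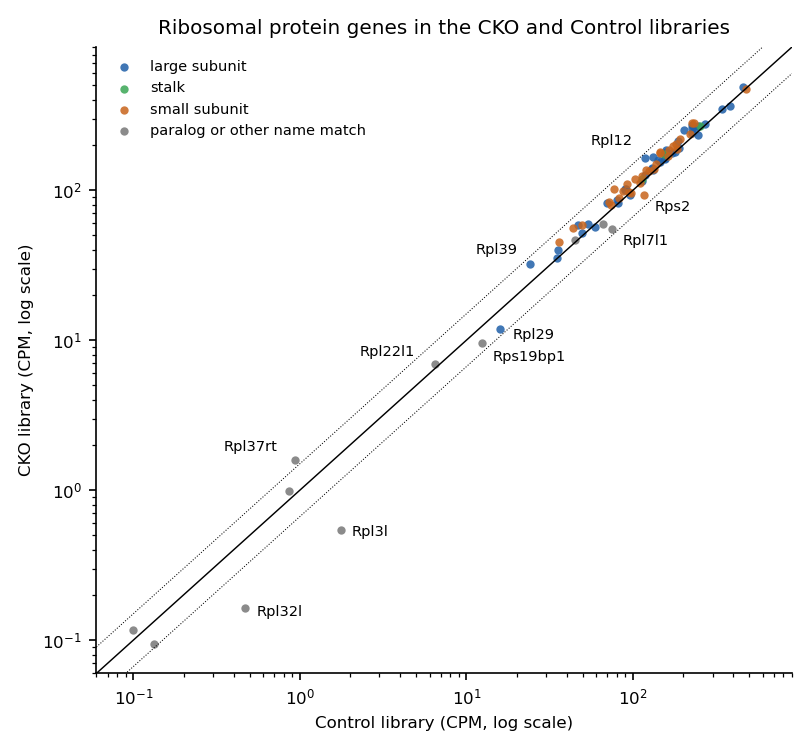
Level of each ribosomal protein gene with reads in both libraries, in the CKO library (vertical axis, CPM, log scale) and the Control library (horizontal axis, CPM, log scale), coloured by role. The solid line marks equal levels and the dotted lines a ratio of 1.5 either way. Canonical members lie close to the solid line over the range from 13.9 to 474 CPM, while Rpl3l and Rpl32l lie below the dotted lines and Rpl37rt above them, each with fewer than 100 reads in either library.

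The canonical members had similar ratios. No canonical member passed a 1.5-fold difference, and their log2 ratios ran from -0.40 for Rpl29 to 0.49 for Rpl12. Of all 84 expressed members, none (0) was at least 1.5-fold higher, which 19.3% of all expressed genes were. The share was 8.25% among other genes of the same CPM range. The 1 member at least 1.5-fold lower was Rpl3l, where 6.85% of all expressed genes and 7.25% of genes in that range were. Rpl3l was also the 1 member past 2-fold, where 10.3% of all expressed genes were at least that much higher and 1.66% lower. In the same CPM range these shares were 3.73% higher and 1.49% lower. The log2 ratio was within 0.25 of the canonical median for 72 of the 77 canonical members. Among genes in the same CPM range, 54.5% were that close to their own median. The interquartile range of the log2 ratio was 0.15 for the canonical members, 0.45 for genes in the same range and 0.67 for all expressed genes. Genes in that range are lower on average than the members, and the part of counting error in their wider spread was not tested. Counting error was smaller than the members' spread. The typical half-width of a member's interval was 0.06 on the log2 scale, and for 49 of 77 members the interval excluded the canonical median, above it for 24 and below it for 25.

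**Figure D2:**
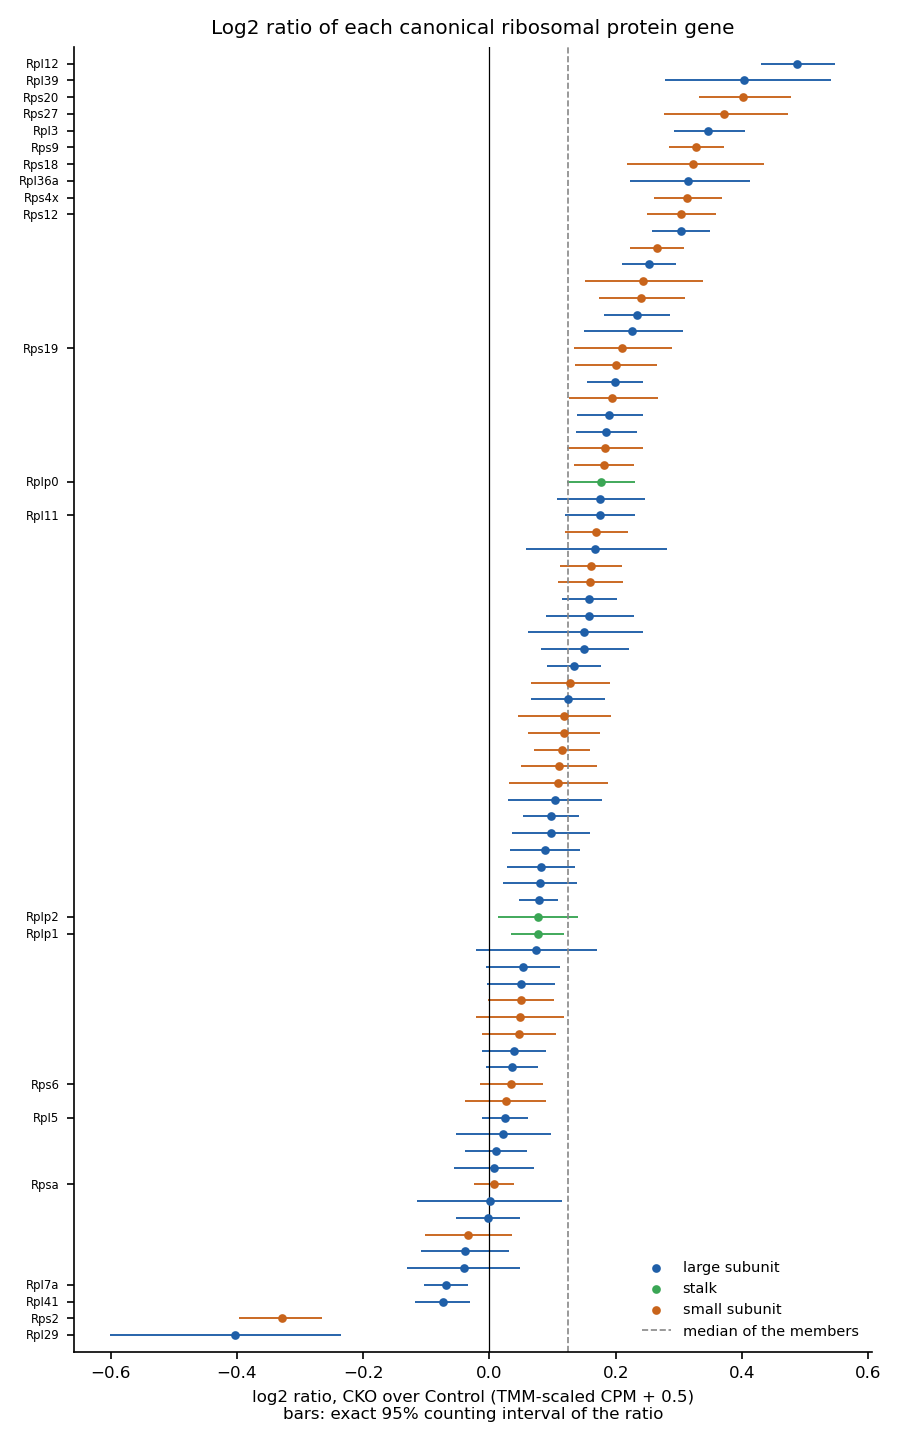
Log2 ratio of CKO to Control (horizontal axis, TMM-scaled CPM + 0.5) for each of the 77 canonical ribosomal protein genes, ordered by ratio and coloured by role, with labels for the genes at the ends, the stalk and some others named in the text, with exact 95% counting intervals as bars. The dashed line is the members' median of 0.12. Most points lie between 0 and 0.25, and Rps2 and Rpl29 stand apart at the low end, Rps2 only without its pseudogenes' reads. With FPKM the ratio of Rpl29 was 1.07, still below those of Rpl41 (1.18) and Rpl7a (1.19).

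Large subunit members, stalk included, summed to 7550 CPM in the CKO library and 6997 CPM in the Control library, and small subunit members to 4711 CPM in the CKO library and 4262 CPM in the Control library. The median log2 ratio was 0.10 for the 46 large subunit and stalk genes (interquartile range 0.04 to 0.18) and 0.16 for the 31 small subunit genes (0.08 to 0.24). The 2 ranges overlap widely. The stalk proteins recruit the translation factors that hydrolyse GTP, and their genes had ratios from 1.05 to 1.13. The interval of Rplp0 began at 1.089, above the end of that of Rplp1 at 1.085. Rplp0 had 174 CPM in the CKO library and 154 CPM in the Control library, a ratio of 1.13 (1.09 to 1.17). Rplp1 had 267 and 253 CPM in the CKO and Control library, a ratio of 1.05 (1.02 to 1.09), and Rplp2 had 119 and 113 CPM, a ratio of 1.05 (1.01 to 1.10).

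The highest ratio among canonical members belonged to Rpl12, whose protein sits at the base of the stalk. It lies on chromosome 2 at 32961712 to 32964045 (GRCm38) and had 7017 reads in the CKO library and 3535 in the Control library. These are 165 CPM (exact Poisson interval 161 to 169) and 117 CPM (114 to 121), a ratio of 1.40 (1.35 to 1.46). Rpl39, a small protein of the exit tunnel, had 32.0 CPM in the CKO library and 24.1 CPM in the Control library, a ratio of 1.33 (1.21 to 1.46). Rps20, of the small subunit's head, had 102 CPM in the CKO library and 76.8 CPM in the Control library, a ratio of 1.32 (1.26 to 1.39). Rps27, a zinc finger protein of the small subunit, followed at 56.3 against 43.4 CPM, a ratio of 1.30 (1.21 to 1.39). Below Rpl12 the ratio thus stepped down gradually. Rpl3, which lies near the peptidyl transferase centre, had 168 CPM in the CKO library and 132 CPM in the Control library, a ratio of 1.27 (1.22 to 1.32). Rps9, one of the most abundant small subunit members, had 282 CPM in the CKO library and 225 CPM in the Control library, a ratio of 1.26 (1.22 to 1.29). The small subunit genes Rps18, Rps4x and Rps12 and the large subunit gene Rpl36a completed the top 10, with ratios from 1.23 for Rps12 to 1.25 for Rps18.

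At the low end, Rpl29 and Rps2 stood apart from the rest in TMM-scaled gene counts. With its pseudogenes' reads added, Rps2 had a log2 ratio of -0.10, near that of Rpl7a (-0.07), and with the deposited FPKM the ratio of Rpl29 was 1.07. On that FPKM scale the canonical median log2 ratio was 0.44. The FPKM ratios of Rps2, Rpl41 and Rpl7a were 0.990, 1.18 and 1.19, so Rpl29 stayed at the low end. Rpl29 was the least abundant canonical member, with 508 reads in the CKO library and 480 in the Control library. Its level was 11.9 CPM (10.9 to 13.0) in the CKO library and 15.9 CPM (14.5 to 17.4) in the Control library, a ratio of 0.748 (0.659 to 0.850). Rpl29 lies on chromosome 9 at 106428889 to 106431568. Rps2, which lines the mRNA entry channel, had 3964 reads in the CKO library and 3525 in the Control library, or 93.1 CPM in the CKO library and 117 CPM in the Control library, a ratio of 0.795 (0.760 to 0.832). With total counts as the scale the ratio was 0.933 for Rpl29 and 0.991 for Rps2, and these 2 were the canonical members with a ratio below 1 on that scale. Rpl41, the shortest ribosomal protein, had 234 CPM in the CKO library and 247 CPM in the Control library, a ratio of 0.9497 (0.922 to 0.979). Rpl7a, of the large subunit, had 363 CPM in the CKO library and 381 CPM in the Control library, a ratio of 0.953 (0.930 to 0.977). Rpl36, Rpl27 and Rpl28 had ratios from 0.972 to 0.999, each with an interval that included 1. Rpl35a, at 1.0002, and Rpsa, at 1.005, were also among the lowest 10. On the total-count scale the ratios of Rpl41, Rpl7a, Rpl36, Rpl27, Rpl28, Rpl35a and Rpsa were above 1.

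Several members are known for roles beyond the ribosome. Rpl5 and Rpl11, which with the smallest ribosomal RNA form a particle that binds MDM2 and so stabilises p53, did not share a ratio. Rpl11 had 159 CPM in the CKO library and 141 CPM in the Control library, a ratio of 1.13 (1.09 to 1.17). Rpl5 had 347 CPM in the CKO library and 342 CPM in the Control library, a ratio of 1.02 (0.991 to 1.04). Rps6, the substrate of the S6 kinases, had 187 CPM in the CKO library and 182 CPM in the Control library, a ratio of 1.02 (0.989 to 1.06). Rps19, the gene most often mutated in Diamond-Blackfan anaemia in humans, had 82.8 CPM in the CKO library and 71.6 CPM in the Control library, a ratio of 1.16 (1.10 to 1.22). Rpsa, which also serves as a laminin receptor, had 476 CPM in the CKO library and 473 CPM in the Control library.

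Levels of different genes can be compared per kilobase with the deposited FPKM. The canonical members had a median of 166 FPKM in the CKO library and 128 FPKM in the Control library, where all expressed genes had medians of 6.65 FPKM in the CKO library and 4.98 FPKM in the Control library. Among the 10 highest by mean FPKM were Rplp1, Rpl41, Rpl7a, Rps9, Rpl23a, Rps15, Rpl28, Rps23 and Rpl4. Rplp1 had 560 FPKM in the CKO library and 426 FPKM in the Control library, and Rpl41 had 512 and 433 FPKM. Among the 200 genes of highest FPKM were 28 canonical members in the CKO library and 16 in the Control library. The lowest were Rpl29 with 14.1 FPKM in the CKO library and 13.1 FPKM in the Control library, Rps15a with 19.0 and 13.3 FPKM, Rps20 with 29.0 and 17.6 FPKM and Rpl22 with 36.5 and 25.03 FPKM. The length implied by reads and FPKM, with all counted reads as the total, was 5837 bases for Rps15a, 3916 for Rps20 and 2506 for Rpl22 in the CKO library, against 532 for Rplp1. A low FPKM of these 3 genes therefore goes with a long gene model and not with few reads, as Rps15a had 4231 reads in the CKO library.

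Reads from ribosomal protein mRNAs can also fall on processed pseudogenes. The table held 227 pseudogenes with ribosomal protein symbols, 148 of them with reads, which summed to 36669 reads in the CKO library and 24350 in the Control library, a ratio of 1.06 (1.05 to 1.08). The split mattered most for Rps2, whose pseudogenes held 82.3% of the joint reads in the CKO library and 79.3% in the Control library. Rps2-ps10 alone had 15186 reads in the CKO library and 10773 in the Control library. Rps2 and its pseudogenes together had a ratio of 0.934 (0.916 to 0.953), where Rps2 alone had 0.795, so its value is uncertain. Pseudogenes held 57.5% of the joint reads of Rpl35a in the CKO library and 56.7% in the Control library, and 53.3% and 52.2% of those of Rpl3. The joint ratio was 1.02 for Rpl35a and 1.30 (1.27 to 1.34) for Rpl3. For Rpl29 it was 0.743 (0.659 to 0.839), since its pseudogenes held 49 reads in the CKO library and 50 in the Control library.

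Of the 13 members outside the canonical set, 7 were expressed. Rpl7l1, which acts in assembly of the large subunit, had 55.3 CPM in the CKO library and 75.2 CPM in the Control library, a ratio of 0.736 (0.695 to 0.780), while Rpl7 had 1.15 (1.11 to 1.18). Rpl36al, a close copy of Rpl36a, had 59.8 CPM in the CKO library and 66.1 CPM in the Control library, a ratio of 0.904 (0.852 to 0.959), while Rpl36a had 1.25 (1.17 to 1.33). Rps27l, a p53-responsive paralog of Rps27, had 46.8 CPM in the CKO library and 45.1 CPM in the Control library, a ratio of 1.04 (0.969 to 1.11), below that of Rps27 with intervals that did not overlap. With total counts as the scale the ratio was 0.918 for Rpl7l1 and 1.13 for Rpl36al.

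Rpl22l1, a paralog of Rpl22, had 6.88 CPM in the CKO library and 6.48 CPM in the Control library, a ratio of 1.06 (0.883 to 1.28). Rps19bp1 had 9.63 CPM in the CKO library and 12.4 CPM in the Control library, a ratio of 0.777 (0.674 to 0.897). Rpl3l, whose expression is best known in heart and skeletal muscle, had 23 reads in the CKO library and 53 in the Control library, a ratio of 0.307 (0.180 to 0.509). Rpl37rt had 68 reads in the CKO library and 28 in the Control library, a ratio of 1.72 (1.09 to 2.77), which on the scale of CPM + 0.5 stayed under 1.5-fold. Rpl37rt and Rps27rt (42 and 26 reads in the CKO and Control library) are copies of expressed parents, so the split of reads is uncertain. Rpl32l, Rpl31-ps12 and Rpl34-ps1 had 14 reads or fewer in either library. Rpl10l and Rpl39l, known from testis, had 0 reads in both, which allows up to 0.0705 CPM in the CKO library and 0.0996 CPM in the Control library.

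Ribosomal proteins whose genes carry other names include Rack1 and Fau. Rack1, a scaffold on the small subunit, had 253 CPM in the CKO library and 233 CPM in the Control library, a ratio of 1.09 (1.05 to 1.12). Fau, which encodes a ubiquitin-like protein fused to a small subunit protein, had 111 CPM in the CKO library and 104 CPM in the Control library, a ratio of 1.06 (1.02 to 1.11). Rps27a, a member of the set whose product is fused to ubiquitin, had a ratio of 1.09 (1.05 to 1.14).

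**Figure D3:**
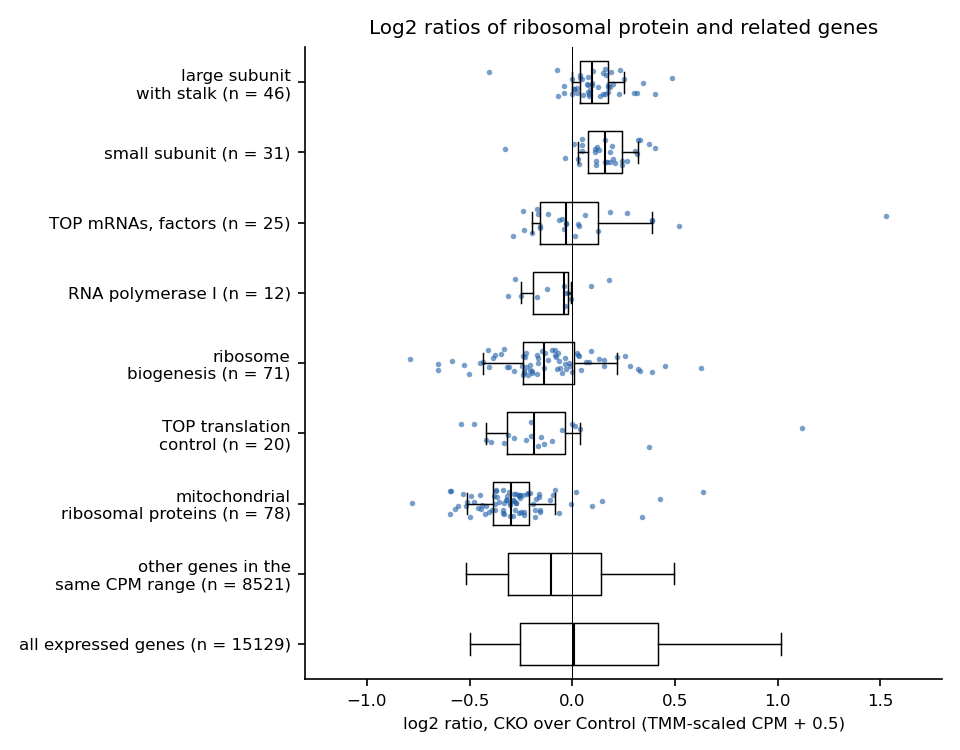
Log2 ratios of CKO to Control (horizontal axis, TMM-scaled CPM + 0.5) for canonical ribosomal protein genes by subunit, related gene lists, genes in the same CPM range and all expressed genes. Boxes show the quartiles with the median as a line, whiskers the outermost genes within the 10th to 90th percentiles, and points the single genes of lists under 200 genes. The mitochondrial ribosomal protein box, with a median of -0.30, lies to the left of 0, and both subunits of the cytosolic ribosome, with medians of 0.10 and 0.16, lie to the right of 0. With total counts as the scale the mitochondrial median is 0.02.

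Genes of ribosome assembly had a lower median than the ribosomal proteins. All 71 listed ribosome biogenesis genes were expressed, and 3 of them (4.23%) were lower and 1 (1.41%) was higher by 1.5-fold or more, shares below the 6.85% lower and 19.3% higher of all expressed genes. Their median log2 ratio was -0.14, or 0.17 with total counts, both below the median of all expressed genes on the same scale. Nhp2, a protein of the box H/ACA particles that modify ribosomal RNA, was lowest, with 41.4 CPM in the CKO library and 71.9 CPM in the Control library, a ratio of 0.576 (0.541 to 0.614). Nop16 and Rpf2, both of large subunit assembly, had 0.630 (0.573 to 0.693) and 0.626 (0.552 to 0.711). Rrp1b was highest at 1.57 (1.37 to 1.81), then Ddx10 at 1.38 (1.21 to 1.57) and Npm1, a nucleolar chaperone, at 1.31 (1.27 to 1.36). Ncl, nucleolin, was the most abundant, with 327 CPM in the CKO library and 312 CPM in the Control library.

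RNA polymerase I, which transcribes the large ribosomal RNA precursor, had 12 listed genes expressed and none (0) past 1.5-fold either way, where 19.3% of all expressed genes were higher and 6.85% lower by that much. They had a median of -0.04 with TMM and 0.27 with total counts. Ubtf, its upstream factor and the most abundant of the list, had 124 CPM in the CKO library and 154 CPM in the Control library, a ratio of 0.804 (0.773 to 0.837). Polr1a, the largest subunit, had 0.824 (0.768 to 0.884), and Polr1e, another subunit, 0.834 (0.728 to 0.956). Taf1c, of the initiation complex, was highest at 1.14 (0.970 to 1.34), followed by Polr1b at 1.07 and Taf1d at 0.996. With total counts Ubtf had a ratio of 1.002 and Polr1a one of 1.03. Polr1f, Polr1g and Polr1h are not analysed here.

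Other mRNAs listed as having a TOP tract had a median of -0.03 with TMM and 0.29 with total counts. Of 25, 1 (4%) was at least 1.5-fold higher and none (0) lower, beside 19.3% higher and 6.85% lower of all expressed genes. The higher one was Vim, an intermediate filament gene of mesenchymal cells, at 72.9 CPM in the CKO library and 24.98 CPM in the Control library. Hnrnpa1 (1.43) and Npm1 came next. Eef1a1, the elongation factor gene and the most abundant of the list, had 3812 CPM in the CKO library and 3735 CPM in the Control library, a ratio of 1.02. Eif2s3x, Eef1d and Nap1l1 were lowest, at 0.817, 0.846 and 0.848.

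Genes of TOP translation control had a median of -0.19 with TMM and 0.13 with total counts, with 1 of 20 (5%) at least 1.5-fold higher and none (0) lower, beside the same 19.3% and 6.85% of all expressed genes. Mtor, the kinase of mTORC1, was lowest, with 214 CPM in the CKO library and 311 CPM in the Control library, a ratio of 0.687 (0.668 to 0.708), or 0.857 with total counts. Larp1 had 137 CPM in the CKO library and 191 CPM in the Control library, a ratio of 0.718 (0.692 to 0.745), or 0.895 with total counts. Eif4e, the cap-binding protein, had 0.747 (0.706 to 0.791). Eif4ebp1, an inhibitor of cap-dependent translation, was highest at 2.30 (1.90 to 2.82), with 10.3 CPM in the CKO library and 4.48 CPM in the Control library. Pdcd4, an inhibitor of the helicase eIF4A, followed at 1.30 (1.20 to 1.41) and Mlst8, an mTORC1 subunit, at 1.03 (0.911 to 1.16). Eif4g1, the scaffold of the cap-binding complex, was most abundant, with 457 CPM in the CKO library and 568 CPM in the Control library, a ratio of 0.804. Among the 10 expressed regulators of ribosome synthesis, whose median was 0.24, 2 (20%) were at least 1.5-fold higher, close to the 19.3% of all expressed genes, and none (0) lower. Myc, a transcription factor that activates ribosomal genes, had 15.5 CPM in the CKO library and 5.51 CPM in the Control library, a ratio of 2.82 (2.38 to 3.36), and its relative Mycl had 131 reads in the CKO library and 17 in the Control library. Mdm2, the p53 ligase, and Mdm4 had 1.46 and 1.47, while Mycn was lowest at 0.707 (0.550 to 0.910), then Mxi1 at 0.924 and Mxd1 at 0.927.

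Mitochondrial ribosomal proteins, which are also encoded in the nucleus, had a median below that of all expressed genes, whereas the cytosolic median was above it. Of 78, 6 had a log2 ratio above 0, against 69 of the 77 canonical cytosolic genes, where 50.7% of all expressed genes did. The 1.5-fold limit was passed by 4 (5.13%) lower and 1 (1.28%) higher in the CKO library, below the 6.85% lower and 19.3% higher of all expressed genes. Their sum was 2413 CPM in the CKO library and 3042 CPM in the Control library, a ratio of 0.793 (0.786 to 0.800). The median log2 ratio was -0.30 with TMM and 0.02 with total counts, where the cytosolic canonical median was 0.44 and that of all expressed genes 0.32. Mrpl44, of the large mitochondrial subunit, was lowest, with a ratio of 0.577 (0.529 to 0.629), then Mrpl38 at 0.660. Mrpl12, the most abundant, had 135 CPM in the CKO library and 204 CPM in the Control library, a ratio of 0.661 (0.638 to 0.686). Mrps6, of the small mitochondrial subunit, was highest with 1.57 (1.44 to 1.71), before Mrpl52 at 1.36 and Mrpl33 at 1.28. With 1 library per group the difference between both kinds of ribosome could not be tested.

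**Figure D4:**
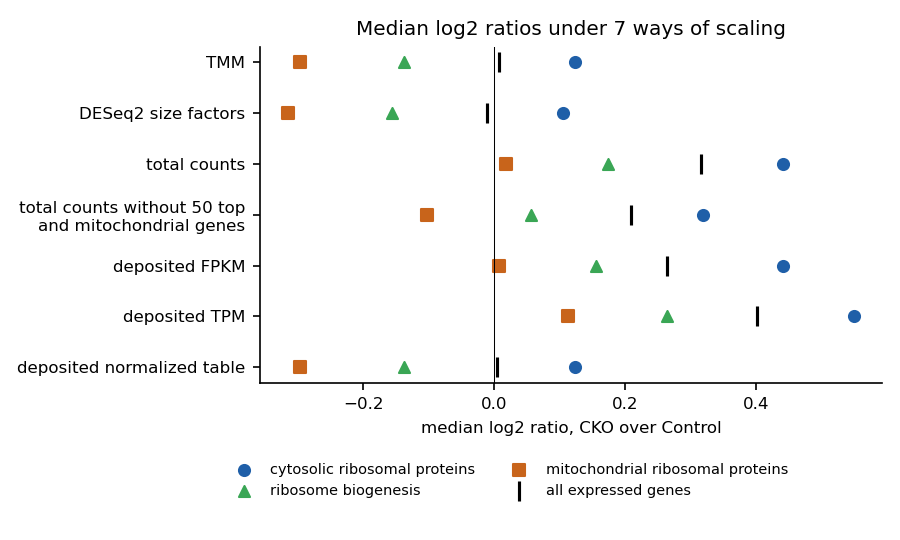
Median log2 ratio of CKO to Control (horizontal axis) under 7 ways of scaling (vertical axis) for canonical cytosolic ribosomal protein genes, ribosome biogenesis genes, mitochondrial ribosomal protein genes and all expressed genes. The cytosolic median runs from 0.11 with DESeq2 size factors to 0.55 with the deposited TPM and lies to the right of the all-gene median in each row, while both other lists lie to its left. Apart from FPKM and TPM, the scalings divide each library by a constant, which moves all medians almost alike and could not change their order. For 71 of the 77 cytosolic genes FPKM and TPM also act nearly as a constant.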

How the data were processed

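Whole kidney RNA was sequenced as 1 CKO and 1 Control library, made with a stranded mRNA kit, per the labels' protocols. Per the submitters' processing notes, the mm10 build, edgeR, DESeq2, FastQC, Cufflinks 2.2.1, HTSeq and STAR 2.7.3a were used, with no role stated. The deposited table holds raw read counts per gene, with FPKM and TPM values beside them, per the file headers. A second deposited table holds a normalized signal, found here to equal each count divided by 1 constant per library (42.6 for CKO and 30.1 for Control), for 19550 genes, those with at least 1 read in each library.

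Here the counts were scaled by TMM (edgeR 4.0.16, R 4.3.3) with factors of 1.12 (CKO) and 0.896 (Control). Log2 ratios use CPM + 0.5, which understates differences of genes with few reads. Intervals of ratios are Clopper-Pearson 95% intervals. A count of 0 allows up to 3 reads. PCR duplicates cannot be told from separate molecules. Steps were tested on simulated counts. Python 3.11.15, numpy 2.4.6, pandas 2.3.3, scipy 1.17.1 and DESeq2 1.42.0 (size factors) were also used. RefSeq GRCm38.p6, the assembly that mm10 names, gave positions for all 90 members.

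The members and lists were chosen with earlier results of these data known. Named genes are the 10 highest and 10 lowest ratios and the 10 highest mean FPKM among members, stalk genes, Rpsa, Rpl5, Rpl11, Rps6, Rps19, each member outside the canonical set, and the extremes and most abundant gene of each related list. Some genes that this rule or the lists name are not reported here. Pseudogenes were assigned to parents by symbol.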

Additional observations from a re-analysis of the deposited data

How the results depend on the processing

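No paired analysis was possible because each group has 1 library, and no library could be left out. The members' median log2 ratio, 0.116 with TMM, was 0.432 with total counts, 0.310 with a reduced total (leaving out the 50 genes of most reads and those encoded in mitochondria), 0.433 with FPKM and 0.540 with TPM. The summed ratio was 1.07 with DESeq2 size factors, 1.35 with total counts, 1.24 with the reduced total, 1.35 with FPKM and 1.45 with TPM. Under the same 4 settings (total counts, reduced total, FPKM, TPM) the large subunit median was 0.414, 0.293, 0.416 and 0.524 and the small subunit median 0.478, 0.356, 0.476 and 0.583, and members at least 1.5-fold higher numbered 12, 4, 12 and 31 (14.1%, 4.71%, 14.1% and 36.0% of those expressed), beside 31.1%, 27.2%, 24.2% and 35.4% of all expressed genes. With a pseudocount of 0.1 CPM 1 member was that much higher. At least 1.5-fold lower were 2 of 86 members with TPM, beside 2.43% of all expressed genes. With canonical members alone 0 were, beside 6.85%. The count was also 0 with a pseudocount of 2 CPM or a minimum of 10 CPM. The share of all expressed genes was not computed with these pseudocounts or this minimum. The members' median stood 0.109 above that of all expressed genes, and 0.169 with FPKM, 0.0459 without a minimum, 0.194 with a minimum of 10 CPM and, chosen after seeing the data, 0.217 against genes of the canonical CPM range. With means in place of medians the difference was -0.046, since the mean of all expressed genes was 0.15. Relative to all expressed genes, ribosomal proteins named otherwise stood at 0.168 with FPKM, 0.138 with TPM, 0.023 without a minimum and 0.165 with 10 CPM, where the TOP mRNA list stood at 0.0411 and TOP translation control at -0.0926. The other 130 recomputed values stayed within set limits. For a median the limit was the typical half-width of a single gene's counting interval in that list. For the summed ratio it was the counting interval, and for a count a factor of 1.5. The counting error of a median itself was not computed. Differences from all expressed genes could hardly move where a scaling divides each library by a constant, so those values are no separate check. Some limits exceeded the value itself, as for RNA polymerase I, at -0.0461 with a limit of 0.143. The TOP mRNA list went from -0.0381 with TMM to 0.0189 with FPKM and still counted as within its limit of 0.0621. Adding same-named pseudogene reads, also chosen after seeing the data, gave a median of 0.110.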

Other observations

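Rps2 and Rpl3l, the canonical member and the paralog with the second lowest and the lowest ratio of their kinds, lie 5.90 kb apart on chromosome 17 (Rps2 at 24718121 to 24721927, Rpl3l at 24727826 to 24736143, GRCm38). Within 50 kb of either, 7 other genes were expressed, and all 7 had a ratio below 1 after TMM scaling, 5 of them with a counting interval below 1, beside 49.3% of all expressed genes with a log2 ratio below 0 and 34.7% with such an interval. With total counts 5 of the 7 were below 1, and Zfp598 (1.08) and Tbl3 (1.14) were above it. Ndufb10, a respiratory chain subunit gene between both, had 5692 reads in the CKO library and 5706 in the Control library, a ratio of 0.705 (0.680 to 0.732). Msrb1, a methionine sulfoxide reductase gene, had 3044 reads in the CKO library and 4703 in the Control library, a ratio of 0.458 (0.437 to 0.479). This stretch was looked at because of its values.

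The 4 X-linked canonical members, Rpl10, Rpl36a, Rpl39 and Rps4x, had a median log2 ratio of 0.31, from 0.13 to 0.40. The median of all 502 expressed X-linked genes was 0.09. Chromosome 7 carries 14 canonical members, with a median of 0.17 against 0.07 for its 1113 expressed genes. Over all chromosomes these medians were 0.12 and 0.01, so the gap on chromosome 7 is not particular to it.

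For 71 of the 77 canonical members the CKO to Control ratio of the deposited FPKM was within 1% of 0.880 times the ratio of reads. Rpl29 departed furthest, with a factor of 1.01 and an implied length of 948 bases in the CKO library and 1087 in the Control library. Its FPKM ratio was 1.07, where its ratio of reads with total counts was 0.933, so the direction for Rpl29 depends on which deposited value is used. By either value it was among the lowest canonical members. Rps24, a gene with known splice variants, had a factor of 0.845 and implied lengths of 1577 bases in the CKO library and 1512 in the Control library. Rpl10a had 0.844, with 1003 bases in the CKO library and 959.6 in the Control library.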
